A study of Mus musculus with 11 samples.

Results

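Transcripts of the extracellular matrix were followed in 3T3-L1 cells exposed for 24 h to 1 of 3 thiazolidinediones or to vehicle. The genes were chosen by a rule on their names, with earlier results of these data known. A probe set was a member if the annotation paired it with 1 gene whose symbol stood for a collagen chain (Col with an alpha number), a laminin chain (Lama, Lamb, Lamc), a fibulin (Fbln), a fibrillin (Fbn), a thrombospondin (Thbs), a nidogen (Nid) or a lysyl oxidase (Lox), or was Sparc, Sparcl1, Fn1, Tnc, Eln, Dcn, Bgn, Lum, Spp1, Vcan or Postn. The rule found 84 of the 12422 probe sets that are not controls, for 59 of 8251 genes. Of these, 79 probe sets of 55 genes exceeded a floor of 73.7 signal units, the 25th percentile of all values, on at least 2 of the 11 arrays and were tested. The other 5 were the probe sets of Col22a1, Col4a3, Nid2 and Vcan and 1 of the Tnc probe sets: Col22a1 and Vcan exceeded the floor on 1 array each, and the rest on 0.

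3T3-L1 is an established mouse fibroblast line, much used as a model of fat cell formation. The labels tell neither if the cells were differentiated nor if the samples were separate cultures, so the p-values here measure the spread between these samples, which may be technical. The vehicle group (0.1% DMSO) has 3 arrays, pioglitazone at 20 µM has 2, rosiglitazone at 1 µM has 3 and troglitazone at 20 µM has 3. All of them are total RNA of the same line, 1 array per sample, and the labels name DMSO for the vehicle group alone. Replicates 1 and 2 form set 1 and replicate 4 forms set 2, which holds no pioglitazone array; values are listed below in the order of replicates 1, 2 and 4. The 3 drugs are ligands of the nuclear receptor PPARγ, the regulator of adipocyte differentiation, and the series title names their effect on these cells as its subject.

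Fibroblasts secrete a matrix whose fibrils are built mainly from collagens I, III and V, and which fibronectin helps to assemble. During adipocyte differentiation this fibrillar matrix is remodelled, and the fat cell surrounds itself with a basement membrane of collagen IV, laminin and nidogen, to which collagen VI is linked. SPARC and the small leucine-rich proteoglycans biglycan and decorin bind collagen and influence how its fibrils form.

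The files hold signal intensities on a linear scale that the authors had already scaled to a common trimmed mean, and array medians ran from 163.1 to 244.2. Pairwise correlations of the log2 signals ran from 0.82 to 0.945, and rosiglitazone replicate 2 stood lowest, its correlations with the rest having a median of 0.833. The 3' to 5' ratio of the actin controls, a sign of RNA quality, was 4.86 on pioglitazone replicate 2 and 3.74 to 3.90 in set 2, against 1.79 to 2.27 on the other arrays. All 10 adipocyte markers on the array were above the floor on every array. Their summed signal was 94277 to 115878 on the vehicle arrays and 95491 to 112784 with pioglitazone. With rosiglitazone it was 96941.5 to 127142 and with troglitazone 79659 to 101114.5. Adipoq (vehicle mean 46880) and Lpl (23197) led this sum. In the mean of the drugs Cidec, a lipid droplet protein, rose (1.22) and Pparg (-1.75) and the adipokine gene Retn (-1.13) fell. Of 12 preadipocyte and fibroblast markers 4 were above the floor on every array. The summed signal of the 12 was 6040 to 6461 on the vehicle arrays and 2984 to 3624 with pioglitazone. With rosiglitazone the sum was 3977 to 4856 and with troglitazone 3260 to 4380.4. That sum is led by S100a4, a calcium-binding protein of fibroblasts (vehicle mean 2101), and Dlk1, the preadipocyte factor (1780.2). S100a4 was the only 1 of the 12 to fall in the mean of the drugs (log2 -0.93 ± 0.20 SE, 1.9-fold lower, adjusted p = 0.023). Of 8 endothelial markers 0 and of 9 macrophage markers 2 were above the floor on every array. Cd14, a macrophage marker, fell with troglitazone (-1.49, adjusted p = 0.0246) and in the mean (-1.07, adjusted p = 0.0459), and the sums of both lists overlapped between vehicle and each drug, as did those of smooth muscle and skeletal muscle markers, apart from smooth muscle markers with troglitazone (473.6 to 868.2, against 898.1 to 1546 with vehicle) and osteoblast and chondrocyte markers with pioglitazone (525.5 to 648.2, against 670.8 to 836).

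Every matrix transcript that passed the test fell, and none rose. Differences are log2 ratios from a limma fit over all 11 arrays with a term for the set, "passed" means a Benjamini-Hochberg adjusted p under 0.05 over all 11739 tested probe sets, and "fell" and "rose" are used only of those. With pioglitazone 3 of the 79 fell (3.8%), where 0.273% of all tested probe sets fell and 0.63% rose. With rosiglitazone 4 fell (5.06%), where 0.571% of all fell and 0.784% rose, and with troglitazone 6 fell (7.59%), where 0.554% of all fell and 0.775% rose. In the mean of the 3 drugs against vehicle 9 fell (11.4%), against 0.86% of all probe sets that fell and 1.28% that rose. These 9 were Col1a1, Col1a2, Col3a1, Fn1, Sparc, Sparcl1, Bgn, Dcn and Fbln2; Col1a1, Col1a2, Col3a1 and Bgn have several probe sets, of which 1 fell each. The median over the 79 was -0.32 with pioglitazone, -0.11 with rosiglitazone, -0.17 with troglitazone and -0.16 in the mean, beside -0.08, 0, -0.03 and -0.03 over all tested probe sets. In bulk RNA, fewer cells of a type and less RNA per cell cannot be told apart, and the part that the lower preadipocyte and fibroblast sum has in these falls was not tested.

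**Figure D1:**
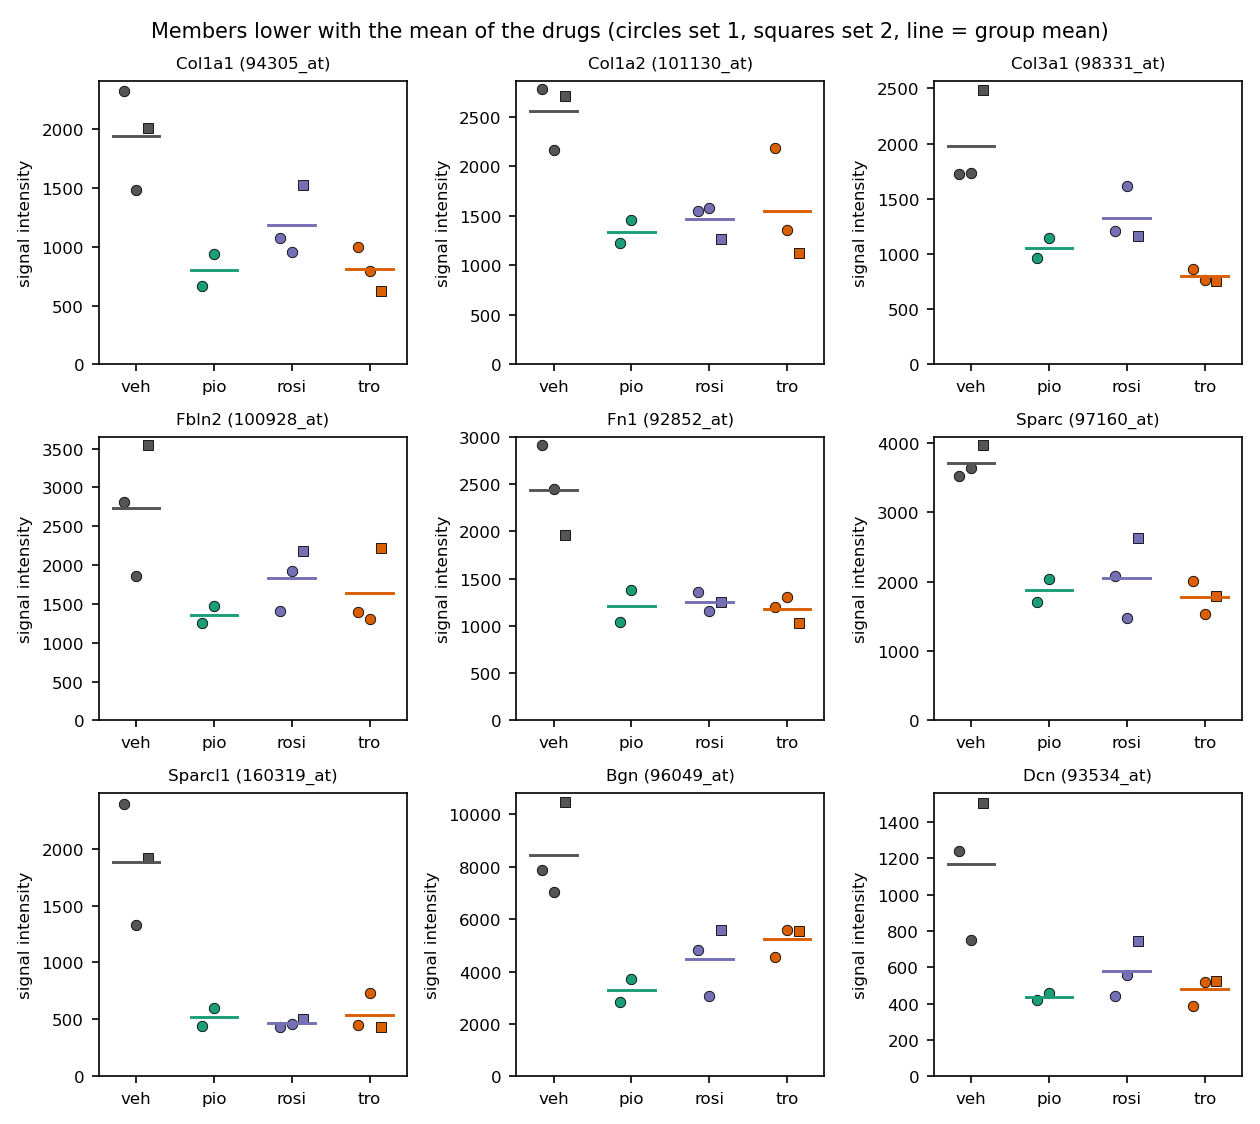
Signal intensity (linear scale, y axis from 0) of the 9 matrix probe sets that fell in the mean of the 3 drugs, on each array by group; circles are set 1, squares set 2 and lines group means. The Sparcl1 arrays sit between 1326 and 2394 with vehicle and between 431 and 734 with any drug.

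The counts rested on few arrays. With pioglitazone, 0 matrix probe sets passed without vehicle replicate 1 (18 at an unadjusted p under 0.05) or pioglitazone replicate 1 (14), and 1 without vehicle replicate 4. With rosiglitazone, 1 passed without vehicle replicate 1 or rosiglitazone replicate 2, and 2 without vehicle replicate 2, vehicle replicate 4 or rosiglitazone replicate 1. With troglitazone, 0 passed without troglitazone replicate 4 (13 at an unadjusted p under 0.05) and 2 without vehicle replicate 1 or 4. For the mean of the drugs, 5 passed without vehicle replicate 1 or 4, and 6 without rosiglitazone replicate 4 or troglitazone replicate 4. A limma fit whose prior variance ignored the mean signal left 0, 0, 0 and 1 called (16, 16, 14 and 18 at an unadjusted p under 0.05), and over all tested probe sets it left 6, 6, 19 and 30 of 106, 159, 156 and 251.

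Start-site windows from RefSeq (GRCm38.p6) were read for 37 of the 59 genes, 44 windows of 250 bases before an annotated start. They are printed for Col1a2, Col3a1, Sparc and Bgn, each with 1 probe set that fell in the mean, and for Col6a1, which did not pass. Capitals mark the TATA box letters TATAAA, the box of letters CCAAT and, for the GC box, the letters GGGCGG, read on either strand, and letters run 5' to 3' on the gene's strand. The windows are chr6:4505368-4505617 on the plus strand, chr1:45311288-45311537 on the plus strand, chr11:55420081-55420330 on the minus strand, chrX:73483351-73483600 on the plus strand and chr10:76726045-76726294 on the minus strand, in the order of the lines.
Col1a2: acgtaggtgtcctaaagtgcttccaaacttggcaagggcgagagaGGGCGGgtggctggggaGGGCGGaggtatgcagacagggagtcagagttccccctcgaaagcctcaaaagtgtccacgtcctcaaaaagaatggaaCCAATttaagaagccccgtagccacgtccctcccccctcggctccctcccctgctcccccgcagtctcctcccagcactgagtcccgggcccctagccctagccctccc
Col3a1: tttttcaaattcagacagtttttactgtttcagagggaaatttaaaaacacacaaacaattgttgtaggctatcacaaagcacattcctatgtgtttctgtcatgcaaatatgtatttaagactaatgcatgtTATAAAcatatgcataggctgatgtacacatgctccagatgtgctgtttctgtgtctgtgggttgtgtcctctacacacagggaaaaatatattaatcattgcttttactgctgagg
Sparc: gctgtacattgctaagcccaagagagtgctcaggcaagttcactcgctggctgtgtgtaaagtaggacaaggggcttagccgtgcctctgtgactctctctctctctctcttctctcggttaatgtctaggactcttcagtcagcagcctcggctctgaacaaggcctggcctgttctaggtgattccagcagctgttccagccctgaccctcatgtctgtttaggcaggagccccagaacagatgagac
Bgn: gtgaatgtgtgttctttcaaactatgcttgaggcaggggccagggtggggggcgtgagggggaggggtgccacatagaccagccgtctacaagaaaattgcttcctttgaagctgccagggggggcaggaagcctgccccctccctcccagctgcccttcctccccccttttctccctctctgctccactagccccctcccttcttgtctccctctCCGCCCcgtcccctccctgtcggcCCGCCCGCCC
Col6a1: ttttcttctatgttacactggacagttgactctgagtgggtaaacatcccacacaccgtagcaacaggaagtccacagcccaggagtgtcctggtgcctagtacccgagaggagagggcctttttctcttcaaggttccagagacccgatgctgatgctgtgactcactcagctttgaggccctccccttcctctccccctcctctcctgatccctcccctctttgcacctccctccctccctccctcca
The Col1a2 window holds a CCAAT 109 to 105 bases before the start and 2 GC boxes, the Col3a1 window a TATAAA 117 to 112 bases before it, and the Bgn window 3 GC boxes, of which 2 overlap and end at the start. The Sparc and Col6a1 windows hold none of these letters. Over all 44 matrix windows TATAAA stood in 9 (20.5%), CCAAT in 14 (31.8%) and GGGCGG in 22 (50%), beside 12.4%, 33.8% and 32.7% of all 32851 windows. The direct repeat of AGGTCA with 1 base of any kind between the copies, a form of element that PPARγ binds with its partner RXR, was searched on both strands and stood in 0 of the 44 windows and in 11 of the 32851 (0.0335%). Col1a1, Fn1, Sparcl1 and Dcn, which fell in the mean, had no window, so these searches do not cover them. A match is a description of the letters, and no match says only that they are not in the window. Col4a1 and Col4a2 lie on chromosome 8 with annotated starts 21 bases apart and run in opposite directions. The window before each start lies after the annotated start of the other gene, so the windows share 0 bases. That count does not tell if the pair has a common promoter region. Their fitted differences in the mean were 0.07 and 0.00.

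The fibrillar collagens form the load-bearing fibrils. Of 13 tested probe sets for 8 genes, 3 fell in the mean of the drugs and 0 rose, with a median of -0.79. The collagen I chains Col1a1 and Col1a2, which together make the main fibril of connective tissue, and Col3a1, the chain of the collagen III that co-assembles with it, were those that fell. In single drugs, Col1a1 and Col3a1 fell with troglitazone, and 0 of the 13 passed with pioglitazone or rosiglitazone (limma, 5 and 6 at an unadjusted p under 0.05). The list median was -0.87, -0.57 and -0.51 with pioglitazone, rosiglitazone and troglitazone, and it stayed between -0.40 and -0.88 under quantile normalisation and median centring.

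Col1a1 (94305_at) had signals of 2329.7, 1487 and 2014 on the vehicle arrays. It had 669.5 and 939.5 with pioglitazone, 1074, 956 and 1522 with rosiglitazone and 1002, 796 and 625 with troglitazone. Rosiglitazone replicate 4 alone lay above the lowest vehicle array, so the groups overlapped there. The mean of the drugs was 2.11-fold lower (log2 -1.08 ± 0.22 SE, n = 8 against 3, adjusted p = 0.0158). The fall with troglitazone was 2.41-fold (-1.27 ± 0.26, n = 3 against 3, adjusted p = 0.024), and it was -1.06 within set 1 and -1.69 within set 2. With pioglitazone the value was -1.25 (adjusted p = 0.0756) and with rosiglitazone -0.72 (0.295). The adjusted p for the mean was 0.178 without vehicle replicate 1 and 0.109 without vehicle replicate 4. For troglitazone it was 0.159, 0.143, 0.0973 and 0.252 without vehicle replicate 1, vehicle replicate 4, troglitazone replicate 2 and troglitazone replicate 4. A second Col1a1 probe set (103709_at) was at -0.52 in the mean (adjusted p = 0.507).

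Col1a2 was lower by 1 probe set and not by the other. The probe set 101130_at had 2783, 2164 and 2713 with vehicle, 1229 and 1455 with pioglitazone, 1545, 1576 and 1269.6 with rosiglitazone and 2182, 1356 and 1122 with troglitazone. Only troglitazone replicate 1 reached the vehicle range. It fell 1.81-fold in the mean of the drugs (-0.86 ± 0.18, adjusted p = 0.0199), with -1.01, -0.80 and -0.77 for the single drugs (adjusted p = 0.086, 0.106 and 0.143). That call was lost without vehicle replicate 1 (0.133), vehicle replicate 4 (0.208), rosiglitazone replicate 4 (0.0587) or troglitazone replicate 4 (0.0658). The other probe set, 161156_r_at, of a less specific design, had vehicle signals of 2194, 2689 and 1926 and drug signals from 1288 to 3476. Its mean difference was -0.07 (95% interval -0.41 to 0.28), so the probe sets of this gene disagreed.

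Col3a1 (98331_at) was lowest with troglitazone. Its signals were 1722, 1731 and 2485 with vehicle, 964 and 1146 with pioglitazone, 1204, 1620.1 and 1162 with rosiglitazone and 866, 768 and 757 with troglitazone, so every drug array lay below every vehicle array. Troglitazone lowered it 2.45-fold (-1.29 ± 0.22, adjusted p = 0.00459), by -1.08 within set 1 and -1.72 within set 2. The mean of the drugs was 1.88-fold lower (-0.91 ± 0.18, adjusted p = 0.0132), and pioglitazone (-0.87, adjusted p = 0.159) and rosiglitazone (-0.57, adjusted p = 0.323) did not pass. The troglitazone call was lost without vehicle replicate 4 (0.07) or troglitazone replicate 4 (0.0618), and that of the mean without vehicle replicate 2 (0.0518) or vehicle replicate 4 (0.172). The probe set 161984_f_at had the lowest value of the list in the mean (-1.52, adjusted p = 0.272) and a wide spread, from 23.7 to 319 on the drug arrays and from 299.6 to 544 with vehicle. A further probe set, 102990_at, exceeded the floor on 3 arrays only and was at -0.12.

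Collagen V controls the diameter of collagen I fibrils, and its chains lay lower without passing. Col5a2 (92567_at) had 934, 688 and 1275 with vehicle and from 308 to 640.3 on the drug arrays, with no overlap, and a mean difference of -1.01 (adjusted p = 0.0612). Col5a1 by 101080_at was at 712, 641 and 553 with vehicle and 143, 205 and 331 with rosiglitazone, at -1.57 (adjusted p = 0.0624), the lowest fibrillar value with that drug. By 93472_at it was at -0.48 in the mean. The chains of the cartilage collagens II and XI did not pass: Col11a1 was at -0.79, Col2a1 at -0.31 and Col11a2 at 0.24 in the mean, the last being the highest of the list. Col11a1, whose value is the list median in the mean of the drugs, exceeded the floor on 5 arrays only. Col2a1 was the highest with troglitazone (0.22), Col11a2 with pioglitazone (0.495) and the 161156_r_at probe set of Col1a2 with rosiglitazone (0.20).

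Of 25 tested probe sets for 16 genes of collagens IV, XV and XVIII, laminins and nidogens, 0 passed with any drug or in the mean (limma, 2, 2, 1 and 3 at an unadjusted p under 0.05). In the mean 2.14% of all tested probe sets passed, so a count of 0 in 25 is near the background. The median in the mean of the drugs was -0.11. The type IV chains Col4a1 and Col4a2, which make the network of the basement membrane, stood high above the floor on every array. Col4a1 (101093_at) had 5931, 4163 and 3935 with vehicle, 5371 and 6513 with pioglitazone, 5092, 4342 and 4541 with rosiglitazone and 4989.5, 3897 and 3968 with troglitazone, and its mean difference was 0.07 (95% interval -0.22 to 0.36). Col4a2 (101039_at) had 3941, 3339 and 3998 with vehicle and from 3237 to 4469 with the drugs, a mean difference of 0.00 (-0.26 to 0.26). The vehicle arrays lay within the range of the drug arrays in both genes. The lower bounds of -0.22 and -0.26 lie above the fitted values of all 9 probe sets that fell. Those 9 were picked as falls in these same data, and the difference between genes was not tested.

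**Figure D2:**
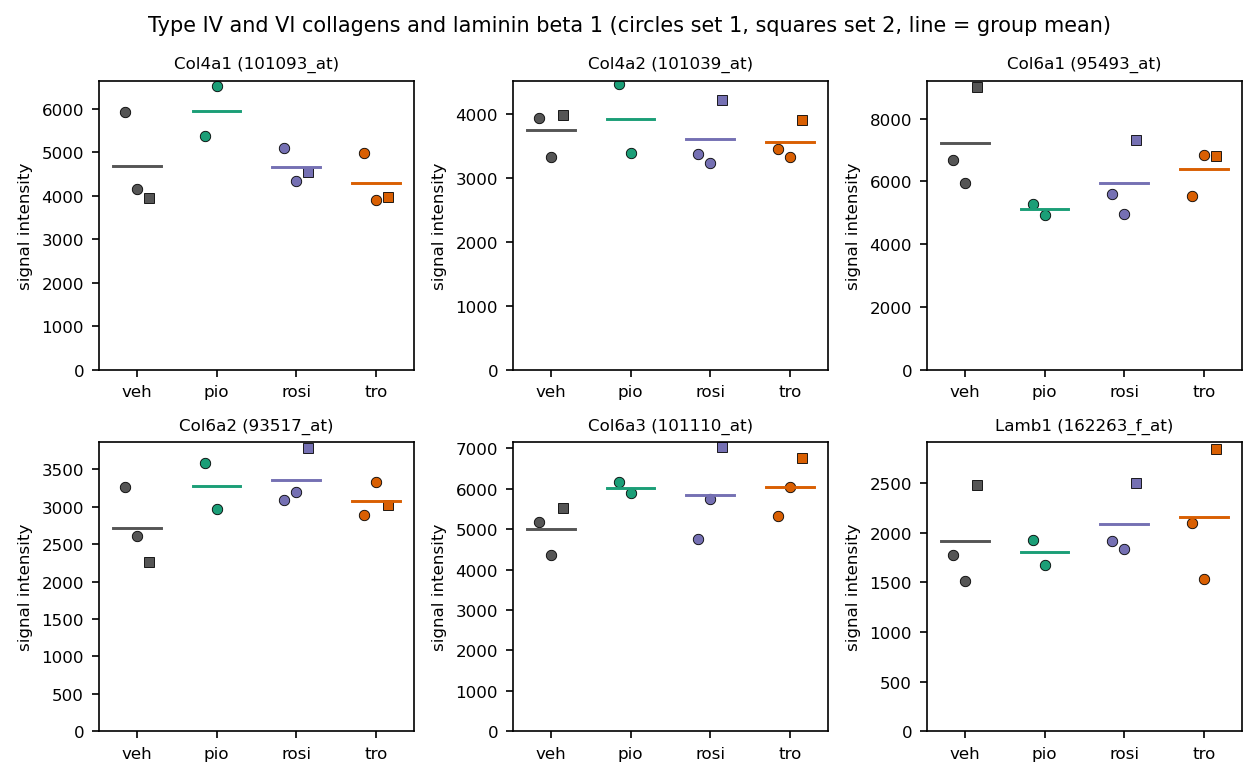
Signal intensity (linear scale, y axis from 0) of Col4a1, Col4a2, Col6a1, Col6a2, Col6a3 and Lamb1 on each array by group; circles are set 1, squares set 2 and lines group means. Vehicle and drug arrays overlap in all 6 panels, and Col4a2 runs from 3339 to 3998 with vehicle and from 3237 to 4469 with the drugs.

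Laminins, the heterotrimers that join cells to that network, did not pass either. The beta 1 chain Lamb1 (162263_f_at) had 1769, 1509 and 2476 with vehicle and 1536 to 2844 with the drugs, a mean difference of 0.14 (-0.17 to 0.44). Another Lamb1 probe set (101948_at) had the highest mean value of the list (0.75). The alpha 4 chain Lama4 (104587_at), a laminin chain of fat and vessels, had 1293, 931 and 1215 with vehicle and was at 0.295 in the mean (-0.14 to 0.73). Lamb2 was at -0.997 (101359_at), Nid1, which bridges laminin and collagen IV, at 0.03, and the 2 Lamc1 probe sets at 0.23 and -0.52. None of these passed.

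Collagen XVIII, a basement membrane collagen with a fragment known as endostatin, had 5 probe sets that spread from -1.14 to 0.07 in the mean. The probe set 99638_at had 672, 627 and 818 with vehicle and 183 to 513.5 with the drugs, with no overlap, and did not pass in the mean (adjusted p = 0.181). It gave the lowest basement membrane value with pioglitazone (-1.24) and in the mean (-1.14), and 101881_g_at gave the lowest with rosiglitazone (-1.501) and troglitazone (-1.05). For 101881_g_at, the set 1 vehicle arrays had 926 and 1024, against 200 and 206 with rosiglitazone and 275 and 208 with troglitazone. In set 2 vehicle had 254, rosiglitazone 258 and troglitazone 475, so the low values of 101881_g_at came from set 1. The highest values were those of Lama4 161793_at with pioglitazone (1.02), Col4a4 with rosiglitazone (0.83) and Lamb1 101948_at with troglitazone (0.496). Lama4 161793_at exceeded the floor only on the pioglitazone arrays (145 and 162) and rosiglitazone replicate 1 (109), so it was tested through arrays where it was high. Col4a4 exceeded the floor on 3 arrays, and its rosiglitazone value rests on replicate 1 (539.5), as replicates 2 and 4 (63.7 and 64.9) lay under it. Col15a1, a relative of Col18a1, was at -0.08.

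Of 19 tested probe sets for 15 further collagens, 0 passed with any drug or in the mean (limma, 2, 3, 0 and 3 at an unadjusted p under 0.05), which is likewise near the 2.14% of all that passed in the mean. Their median was 0.17 in the mean. Collagen VI forms beaded microfibrils around cells and is abundant in fat. Col6a3 (101110_at) had 5174, 4354 and 5512 with vehicle, 6152 and 5899 with pioglitazone, 4757, 5752 and 7018 with rosiglitazone and 5334, 6036 and 6754 with troglitazone. Its mean difference was 0.28 (0.05 to 0.52, adjusted p = 0.343). Col6a2 (93517_at) had 3267, 2603 and 2258 with vehicle and 2889.7 to 3786 with the drugs, at 0.26 (-0.03 to 0.56). Col6a1 (95493_at) had 6688, 5949.8 and 9006 with vehicle and 4933 to 7303 with the drugs, at -0.26 (-0.51 to -0.02, adjusted p = 0.427), while 162459_f_at of the same gene was at 0.18 (-0.15 to 0.51). Vehicle and drug arrays overlapped in each of these, and no collagen VI chain passed.

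Collagen XXVI (Col26a1, 97982_at) was the 1 member of 79 whose 8 drug arrays all lay above the 3 vehicle arrays, a pattern of 1.38% of all tested probe sets. Its signals were 61, 135 and 166 with vehicle and 166.2 to 424 with the drugs, a mean difference of 1.12 that did not pass (adjusted p = 0.379), and it was the highest of this list with pioglitazone (1.22), with troglitazone (0.70) and in the mean. Col9a1, a fibril-associated collagen, was the highest with rosiglitazone (1.501). The lowest were Col10a1 with pioglitazone (-1.19) and in the mean (-0.63), Col8a1 with rosiglitazone (-0.65) and a Col9a3 probe set with troglitazone (-0.48). Most of these lay near the floor. The anchoring fibril collagen Col7a1 was at 0.03, Col14a1 at 0.50, and the 2 probe sets of Col12a1 at -0.36 and 0.50. For Col7a1, troglitazone lay below vehicle in set 1 (410 and 396 against 849 and 823) and above it in set 2 (555 against 201). The value of 0.03 thus does not show that Col7a1 was flat.

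**Figure D3:**
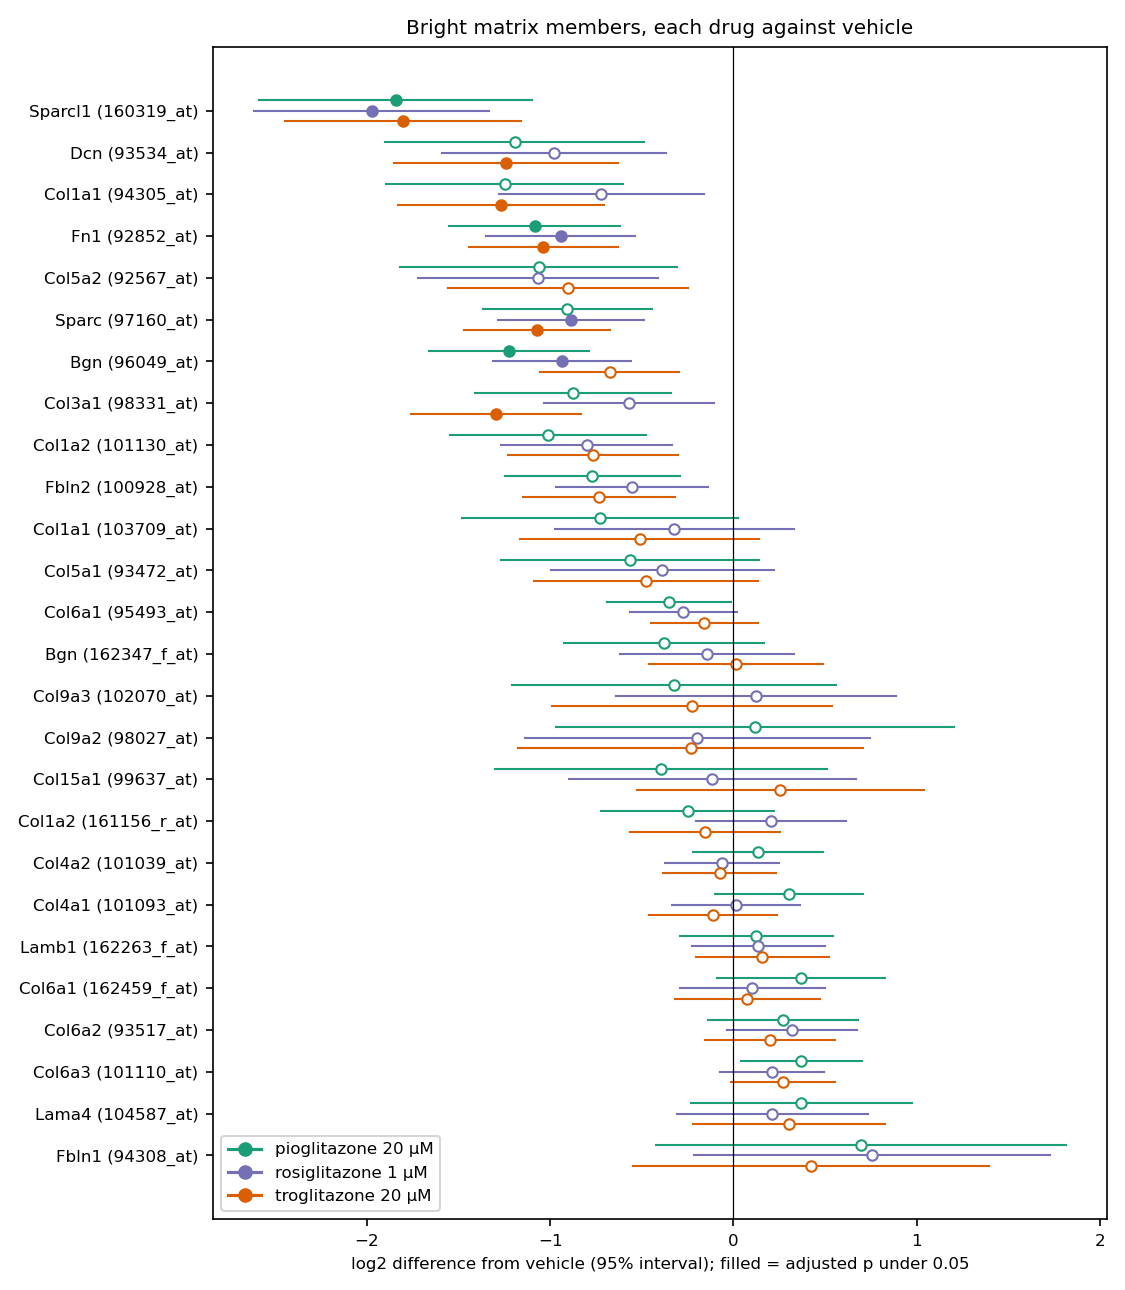
Log2 difference from vehicle (x axis) with its 95% interval for the 26 matrix probe sets above 207.7 signal units on every array, with 1 colour for each of pioglitazone, rosiglitazone and troglitazone; filled points passed. Sparcl1 lies farthest from 0, between -1.80 and -1.97, and Col4a1 and Col4a2 lie between -0.11 and 0.30.

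Elastic fibre genes and lysyl oxidases comprised 11 tested probe sets, of which 1 fell in the mean and 0 passed with a single drug (limma, 2, 1 and 2 at an unadjusted p under 0.05). Fbln2 (100928_at), fibulin 2, a glycoprotein that binds fibronectin and elastic fibres, fell 1.61-fold (-0.68 ± 0.16, adjusted p = 0.0403). Its signals were 2813, 1865 and 3540.5 with vehicle, 1252 and 1474 with pioglitazone, 1403, 1926 and 2187 with rosiglitazone and 1401, 1304 and 2217 with troglitazone, and 3 drug arrays exceeded the lowest vehicle array. The call was lost in 8 of 11 fits that left out 1 array: without vehicle replicate 1 (0.358), vehicle replicate 4 (0.206), pioglitazone replicate 1 (0.0805), rosiglitazone replicates 1 and 4 (0.0658 and 0.114) or troglitazone replicates 1, 2 and 4 (0.0655, 0.0706 and 0.0819). It was also lost with median centring (0.106). The single drugs were at -0.77, -0.55 and -0.73. Fbln1, a related fibulin, had 4 probe sets from -0.73 to 0.625, which do not give 1 direction. Elastin (Eln), the core of the elastic fibre, was at -0.88 and 0.09 by its 2 probe sets, and at -1.62 by the former with pioglitazone, the lowest of the list there. The lysyl oxidase gene Lox, whose product crosslinks collagen and elastin, was at -0.18 and -0.76, and Loxl1, its relative, at 0.65, the highest of the list. Loxl1 was also highest with troglitazone (1.26), where Lox was lowest (-0.745), and Fbln1 probe sets were lowest and highest with rosiglitazone (-0.97 and 0.755) and highest with pioglitazone (0.696). Fbn2, a fibrillin, was at 0.23.

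Fibronectin and the matricellular glycoproteins, which modulate how cells attach, had 3 of 7 tested probe sets that fell in the mean and 0 that rose. Sparcl1, the SPARC-like protein 1, also called hevin, had the lowest value of all 79 members with every drug and in the mean. Its signals (160319_at) were 2394, 1326 and 1921 with vehicle, 438 and 602 with pioglitazone, 431, 460.1 and 508 with rosiglitazone and 450.5, 734 and 434 with troglitazone. The highest drug array lay well under the lowest vehicle array. It fell 3.59-fold with pioglitazone (-1.84 ± 0.35, n = 2 against 3, adjusted p = 0.0171), 3.93-fold with rosiglitazone (-1.97 ± 0.30, n = 3 against 3, adjusted p = 0.00266) and 3.49-fold with troglitazone (-1.80 ± 0.30, n = 3 against 3, adjusted p = 0.00443). For rosiglitazone the value was -2.00 within set 1 and -1.92 within set 2, and for troglitazone -1.63 and -2.15. The mean of the drugs was 3.66-fold lower (-1.87 ± 0.25, adjusted p = 0.000647), and its adjusted p stayed between 0.000337 and 0.0406 over all 22 alternatives. Sparcl1 with rosiglitazone passed whichever array was left out. With pioglitazone it did not pass when vehicle replicate 1 (0.148), vehicle replicate 4 (0.0722) or pioglitazone replicate 1 (0.146) was left out, and with troglitazone without vehicle replicate 1 (0.0534), vehicle replicate 4 (0.0581) or troglitazone replicate 4 (0.066).

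Fn1 (92852_at), fibronectin, also fell with each drug. Its signals were 2912, 2449.5 and 1967 with vehicle, 1045 and 1383 with pioglitazone, 1357, 1158 and 1258 with rosiglitazone and 1203, 1304 and 1035 with troglitazone, with no overlap. The fall was 2.12-fold with pioglitazone (-1.08 ± 0.22, adjusted p = 0.0269), 1.92-fold with rosiglitazone (-0.94 ± 0.19, adjusted p = 0.0203) and 2.05-fold with troglitazone (-1.04 ± 0.19, adjusted p = 0.00941). In the mean it was 2.03-fold (-1.02 ± 0.16, adjusted p = 0.00204), a call that no left-out array ended. The single drugs depended on more arrays. The pioglitazone value did not pass without 1 of the vehicle replicates (0.176, 0.0986 and 0.0503 without replicate 1, 2 and 4), without pioglitazone replicate 1 (0.197) or troglitazone replicate 4 (0.0625), or with median centring (0.0967). The rosiglitazone call was lost without vehicle replicate 1 (0.137), 2 (0.0828) or 4 (0.0641) or rosiglitazone replicate 1 (0.0655) or 2 (0.092). The troglitazone call was lost without vehicle replicate 1 (0.0778) or troglitazone replicate 1 (0.051) or 4 (0.0874).

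Sparc (97160_at), the collagen-binding glycoprotein osteonectin, had 3528, 3638 and 3967 with vehicle, 1713 and 2032 with pioglitazone, 2075, 1476 and 2624 with rosiglitazone and 2003, 1529 and 1796 with troglitazone. The vehicle arrays were close together and all drug arrays lay below them. It fell 1.85-fold with rosiglitazone (-0.89 ± 0.19, adjusted p = 0.0259) and 2.10-fold with troglitazone (-1.07 ± 0.19, adjusted p = 0.00625). With pioglitazone the value was -0.905 (adjusted p = 0.0667). The mean of the drugs was 1.94-fold lower (-0.95 ± 0.16, adjusted p = 0.00296), and it passed whichever array was left out. The rosiglitazone call was lost without vehicle replicate 1 (0.111), 2 (0.132) or 4 (0.106) or rosiglitazone replicate 1 (0.058) or 2 (0.118), and with median centring (0.0536). The troglitazone call was lost without troglitazone replicate 4 (0.0908).

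The other matricellular genes did not pass. Postn, periostin, was at 0.58 in the mean and at 1.15 with pioglitazone, the highest of the list. Tnc, tenascin C (101993_at), was at 0.38, and the thrombospondins Thbs2 and Thbs3 at -0.105 and -0.16. The median of the 7 probe sets was -0.16 in the mean. With troglitazone it was -0.09, and it changed sign with median centring (0.02).

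The matrix proteoglycans Bgn and Dcn carry glycosaminoglycan chains and bind collagen fibrils. Of 4 tested probe sets 2 fell in the mean and 0 rose. Bgn (96049_at), biglycan, had 7878, 7034 and 10457 with vehicle. It had 2850.3 and 3729.8 with pioglitazone, 4819, 3078 and 5599 with rosiglitazone and 4577, 5593 and 5569.6 with troglitazone, and every drug array lay below every vehicle array. It fell 2.34-fold with pioglitazone (-1.23 ± 0.21, adjusted p = 0.00768) and 1.91-fold with rosiglitazone (-0.93 ± 0.18, adjusted p = 0.0148), and with troglitazone the value was -0.67 (adjusted p = 0.0974). The mean of the drugs was 1.92-fold lower (-0.94 ± 0.15, adjusted p = 0.00227), a call kept in each of the 11 fits that left out 1 array. The pioglitazone value did not pass when vehicle replicate 1 (0.0536) or pioglitazone replicate 1 (0.0976) was left out. The rosiglitazone call was lost without vehicle replicate 1 (0.0809), vehicle replicate 4 (0.108), rosiglitazone replicate 2 (0.0709) or rosiglitazone replicate 4 (0.0528). The second Bgn probe set, 162347_f_at, had 1158, 1155 and 1086 with vehicle and 735 to 1261 with the drugs, and its mean difference was -0.17. The probe sets of this gene thus disagreed as those of Col1a2 did, and which of them follows the transcript was not tested.

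Dcn (93534_at), decorin, had 1240.5, 753 and 1507 with vehicle, 421 and 458 with pioglitazone, 443, 560.5 and 743 with rosiglitazone and 390.2, 519 and 527 with troglitazone. The highest drug array, rosiglitazone replicate 4, lay just under the lowest vehicle array. It fell 2.36-fold with troglitazone (-1.24 ± 0.29, adjusted p = 0.048) and 2.20-fold in the mean (-1.14 ± 0.24, adjusted p = 0.0199), with -1.19 for pioglitazone (adjusted p = 0.14) and -0.98 for rosiglitazone (0.15). The call in the mean was lost without vehicle replicate 1 (0.212), vehicle replicate 4 (0.166), rosiglitazone replicate 4 (0.0511) or troglitazone replicate 4 (0.0658). The troglitazone call was lost in 8 of 11 such fits, without vehicle replicate 1 (0.264) or 4 (0.275), pioglitazone replicate 2 (0.0512), rosiglitazone replicate 1 (0.0558) or 4 (0.0806), or troglitazone replicate 1 (0.19), 2 (0.0815) or 4 (0.308). It was also lost with quantile normalisation (0.0738), median centring (0.0953), the replicate number as a block (0.064) and the actin ratio as a covariate (0.0653). Lum, lumican, a proteoglycan of the same family, exceeded the floor on 4 arrays only and was at -0.81.

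**Figure D4:**
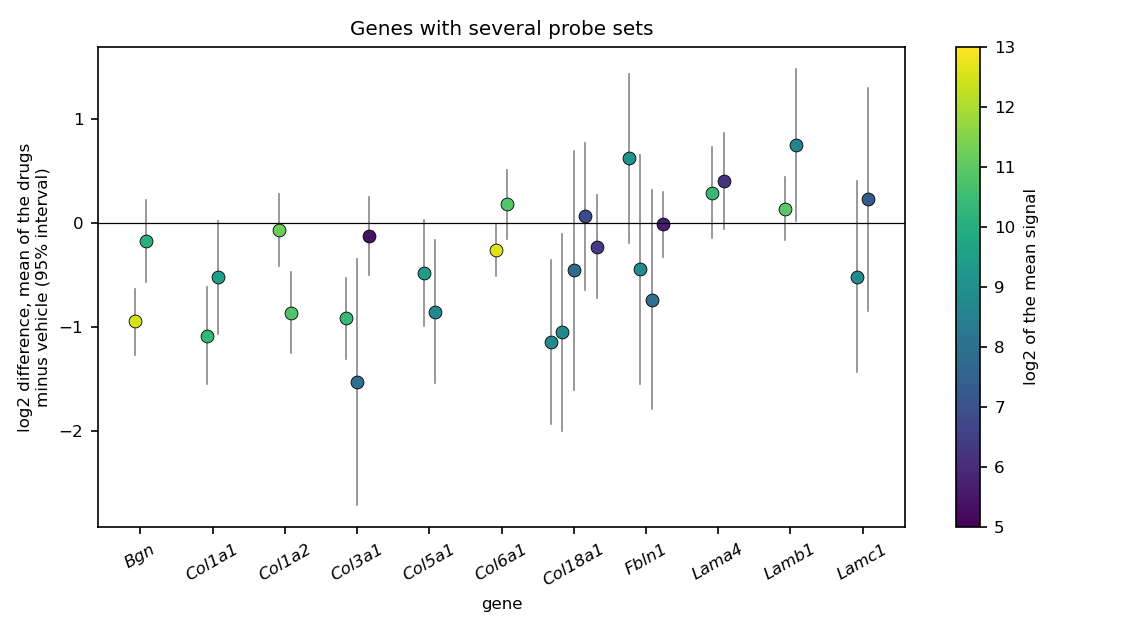
Mean log2 difference of the 3 drugs from vehicle (y axis) with its 95% interval, for 11 of the matrix genes with several tested probe sets (x axis), 1 point per probe set coloured by the log2 of its mean signal. The probe sets of Col1a2 (-0.86 and -0.07) and of Bgn (-0.94 and -0.17) lie apart.

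Across roles, 9 of the 79 matrix probe sets had all 8 drug arrays below all 3 vehicle arrays, where 1.97% of all tested probe sets (231 of 11739) did. These were Col3a1, Col5a1, Col5a2, Col18a1, Fn1, Sparc, Sparcl1, Bgn and Dcn, each by the probe set whose signals are given above. The 26 members that exceeded 207.7, the median of all values, on every array held the calls: 3, 4, 6 and 9 of the 26 fell with pioglitazone, rosiglitazone, troglitazone and in the mean (11.5%, 15.4%, 23.1% and 34.6%). Calls of all genes were also more frequent at that level, and of all 3559 probe sets as bright 0.787%, 1.74%, 1.69% and 2.33% fell. Of the values of the tested matrix probe sets, 16% lay at the floor, so a fall in a dim member could be hidden. Of the 79 tested members 52 (65.8%) lay below 0 in the mean of the drugs, beside 52.8% of all tested probe sets, with no test.

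**Figure D5:**
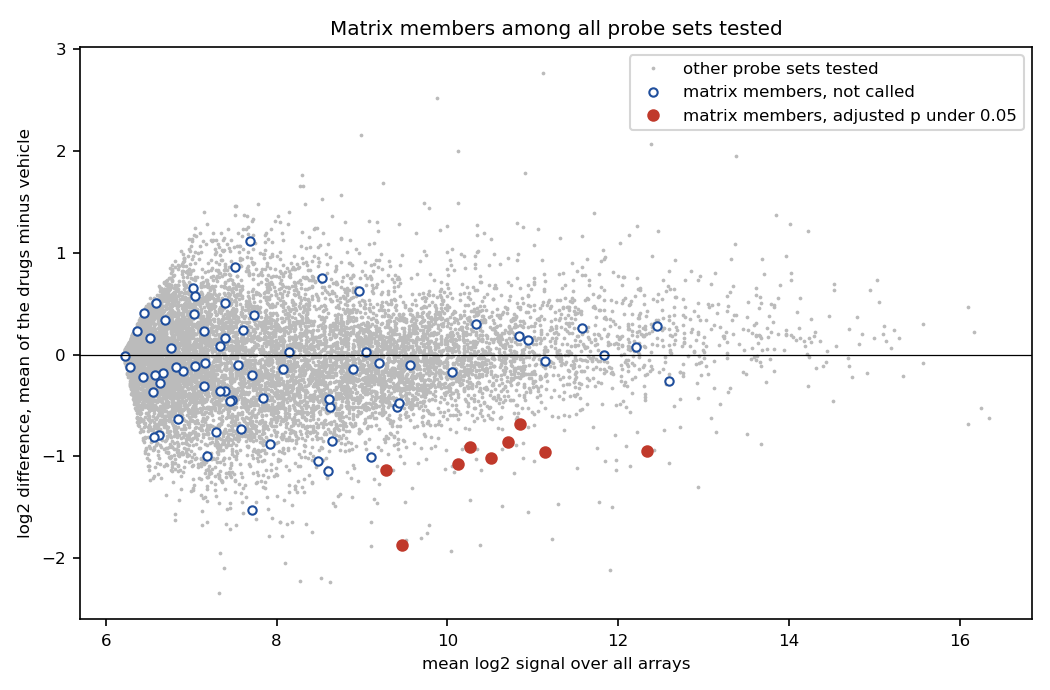
Mean log2 difference of the 3 drugs from vehicle (y axis) against the mean log2 signal over the 11 arrays (x axis) for all 11739 tested probe sets, with the 79 matrix probe sets drawn over them and those that fell marked. The 9 that fell lie among the brighter members, from -0.68 to -1.87.

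Scaling moved the whole distribution with pioglitazone. Over all tested probe sets the pioglitazone median was -0.08 as deposited and 0.06 after each array was centred on its median, and the matrix median was -0.32 and -0.14. Of all probe sets called with pioglitazone, 69.8% were higher as deposited, 48.8% after quantile normalisation and 87.2% after median centring. For troglitazone these shares were 58.3%, 51.1% and 69.7%, and for the mean of the drugs 59.8%, 50.7% and 70.9%. The matrix calls with pioglitazone numbered 4 with quantile normalisation and 2 with median centring, and all were falls.

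Pioglitazone and troglitazone, which carry a pyridine and a chroman ring on the shared thiazolidinedione, were both given at 20 µM, and theirs was the 1 pair compared. Of the 79 matrix probe sets 0 passed (limma, 3 at an unadjusted p under 0.05), where 0.0341% of all tested probe sets passed. The 3 were Bgn 96049_at, higher with troglitazone by 0.55 (0.11 to 0.99, adjusted p = 0.65), Col4a1, lower by -0.41 (-0.82 to -0.01, adjusted p = 0.763), and Lama4 161793_at, at -1.02 (adjusted p = 0.452) and near the floor. The troglitazone signals of Lama4 161793_at (50.1, 47.6 and 32.2) were all raised to the floor, so its p measures no spread in that group. For the other members that fell, the difference of troglitazone from pioglitazone was 0.04 for Sparcl1 (-0.70 to 0.78) and 0.05 for Fn1. It was -0.165 for Sparc, -0.02 for Col1a1 94305_at (-0.67 to 0.63) and -0.42 for Col3a1 98331_at (-0.95 to 0.12). For Col1a2 101130_at it was 0.24, for Fbln2 0.04 and for Dcn -0.05. On the log2 scale the intervals reach -0.95 in Col3a1 and 0.99 in Bgn. A p that missed the threshold thus does not show that the drugs act alike. Rosiglitazone was given at 1 µM, and its values are set beside the others without a comparison.

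Genes that process, bind or regulate the matrix were read from lists beside it. Of 15 tested genes for collagen processing (hydroxylases, chaperones and propeptide proteases), 20 matrix receptors, 20 genes of TGF-beta signalling and 17 other matrix genes, 0 passed with any drug or in the mean (limma, 4, 3, 1 and 3 at an unadjusted p under 0.05 in the mean), where the share of all probe sets in the mean was 2.14%. Their medians in the mean of the drugs were -0.32, 0.06, -0.16 and -0.29. Among the processing genes, Pcolce, the enhancer of procollagen C-proteinase, was at -0.76 (adjusted p = 0.184), Serpinh1, the collagen chaperone HSP47, at -0.345 (0.338), and Tgm2, a transglutaminase, at 0.90 (0.507). Among the receptors, the collagen receptor Ddr2 was at -0.70 and the syndecan Sdc3 at 0.79, and in TGF-beta signalling Smad4 was at -1.07 and Tgfb3 at 0.64. Hspg2, the basement membrane proteoglycan perlecan, was at -1.04 (adjusted p = 0.325), and Agrn, agrin, at 0.21.

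The falls were also set against the 2 sets of arrays. A fit with a mean for each group and set called 0 of 11739 probe sets for a rosiglitazone or troglitazone difference that changed between sets. Among them were 0 matrix probe sets (2 and 5 at an unadjusted p under 0.05). No group has a replicate within set 2, so this test could miss large changes and does not show that the sets agree. All the called rosiglitazone and troglitazone values of Col1a1, Col3a1, Fn1, Sparc, Sparcl1, Bgn and Dcn were below 0 within each set. They were picked as falls over these same arrays, which made that sign likely in advance. With the actin ratio as a covariate 3, 4, 5 and 9 matrix probe sets passed, and without rosiglitazone replicate 2 and pioglitazone replicate 2 the counts were 4, 2, 7 and 9.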

How the data were processed

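The deposited signal intensities, which the authors had scaled (means after trimming 2% from both ends are 500.289 to 500.433), were kept, raised to a floor of 73.7 and taken to log2. The software behind them is not given in the sources used here. After 66 control probe sets were set aside, 11739 of 12422 probe sets exceeded the floor on at least 2 arrays. limma 3.58.1 in R 4.3.3 fitted a term per group and for the set (6 residual degrees of freedom), with a two-sided moderated test whose prior variance follows the mean signal, and was tested on simulated data. Precision is limited by the number of arrays. In the annotation 10833 probe sets have 1 gene, 396 several and 1193 no gene; 10817 matched the GRCm38.p6 gene table. In lists of other genes each gene stands with its highest mean signal. The text names members that passed, the chief structural and matricellular genes whatever their test, and the highest and lowest value of each role per contrast; Col7a1, Col11a1, Col12a1, Col14a1, Lamb2, Fbn2 and the genes of the processing, receptor, TGF-beta and other matrix lists were added after their values were seen. The genes, lists and tests were chosen with earlier results of these data known. The replicate numbers were checked as pairs (closing section). Alternatives were 2 other scalings, floor, added constant, filter, set term, set 1 alone, replicate block, trend, actin ratio and groups compared alone. Others left out each array in turn, or rosiglitazone replicate 2 (lowest in correlation) together with pioglitazone replicate 2 (highest in actin ratio).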

Additional observations from a re-analysis of the deposited data

How the results depend on the processing

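No fit turned a called matrix value to the other sign. Of the 22 calls of a matrix probe set in a contrast, 5 were kept whichever array was left out: Bgn, Fn1, Sparc and Sparcl1 in the mean of the drugs and Sparcl1 with rosiglitazone. Of 373 uncalled pairs, 8 passed under at least 1 alternative. When each array was left out in turn, the number of matrix probe sets called ran from 0 to 4 for pioglitazone (3 with all arrays), 1 to 4 for rosiglitazone (4), 0 to 7 for troglitazone (6) and 5 to 9 for the mean (9), and was 0 throughout for troglitazone against pioglitazone. A fit that leaves pioglitazone 1 array assumes that it varies like the other groups. Without the filter on dim probe sets 1, 2 and 3 were called for pioglitazone, rosiglitazone and troglitazone, and without the set term 1, 1 and 3. In set 1 alone limma called 0, 0, 0 and 3 with the mean last (12, 13, 12 and 17 at an unadjusted p under 0.05). Without the intensity trend it called 0, 0, 0 and 1 (16, 16, 14 and 18). A fit of the pioglitazone and vehicle arrays alone called 0 (15), and the mean of the drugs has no such fit. Without rosiglitazone replicate 2 and pioglitazone replicate 2, rosiglitazone had 2.

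Replicate numbers were not shown to pair the arrays: deviations of arrays with the same number correlated from -0.0444 to 0.00994. With the replicate number as a block, 3, 4, 5, 8 and 0 matrix probe sets were called for pioglitazone, rosiglitazone, troglitazone, the mean and troglitazone against pioglitazone; Dcn with troglitazone (adjusted p = 0.064) and Fbln2 in the mean (0.0536) no longer passed. Signals near the floor limit what a fall in a dim transcript can show.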
